A study of Homo sapiens with 6 samples.

Results

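The proteasome family was read on 6 Affymetrix HG-U133 Plus 2.0 arrays as 40 genes, out of 19775 genes measured. The members were chosen by name: every annotated symbol that begins with PSMA, PSMB, PSMC, PSMD, PSME, PSMF or PSMG and ends in a number, without PSMB8, PSMB9 and pseudogenes. The reference table lists 46 such genes. PSMA6 and PSME2 are read only by probe sets that the annotation also gives to another gene, and PSMB11, PSMC5, PSMD7 and PSMD13 have no probe set paired with them in the annotation used, so these 6 were not analysed here. Each gene was represented by its brightest probe set over all 6 arrays, and values by array are log2 RMA signals given in the order of replicates 1, 2 and 3.

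The cells are the 1833 subline of MDA-MB-231, a human breast cancer line, grown in medium with 10% serum. The 3 arrays labelled S153E-RKIP come from cells transduced with a lentiviral vector for S153E-RKIP, a mutant of the Raf-1 binding protein RKIP that the series describes as the more potent inhibitor, and kept in 0.5 µg/ml puromycin. The 3 control arrays come from cells of the same subline that the series calls vector control, with no time point, clone or vector backbone given in the labels. The labels call the samples biological replicates and do not say how they were made. The p-values therefore reflect only how far these samples vary, and that variation may be technical. For the treated samples 1 label, the source name, gives an HMGA2 shRNA, and the other labels give S153E-RKIP. Neither PEBP1, the gene of RKIP, nor HMGA2 passed the test (log2 differences of -0.093 and -0.023, limma adjusted p = 0.473 and 0.882), so every direction below rests on the label S153E-RKIP. All 6 listed markers of the line (VIM, CD44, EGFR, CAV1, KRT8 and KRT18) lay above the median of all genes (6.64). All 4 measured blood cell markers and 5 of the 7 stromal ones lay below it, and so did PGR and CDH1 among the 5 luminal ones. The summed level of the blood markers ran from 20.7 to 21.0 in control and from 21.3 to 21.8 in the other group, with no overlap. For the 7 stromal markers it ran from 38.5 to 38.9 and from 38.9 to 39.9, with overlap. The summed level of the 6 line markers ran from 74.0 to 74.3 in control and from 73.2 to 73.6 in the other group, with no overlap. None of the markers of any of these lists was called. At an unadjusted p under 0.05 there were 4 of the 6 line markers, EGFR, CAV1, KRT8 and CD44 (-0.26, -0.26, -0.19 and 0.13). Also under it was 1 marker of each other list, CD3E (blood, 0.29), COL1A1 (stroma, 0.21) and GATA3 (luminal, -0.16). The part of these markers in the results below was not tested.

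The proteasome is the machine that degrades proteins tagged with ubiquitin. Its core particle is a barrel of alpha rings, which gate the entrance, and beta rings, which hold the proteolytic sites. A regulatory particle caps the barrel: its base holds a ring of ATPases that unfold the substrate and pull it in, and its lid removes the ubiquitin chain. Other caps and an inhibitor bind the same barrel, and dedicated chaperones help to assemble both particles. Transcription of the subunit genes is known to be raised together by NFE2L1 (also called NRF1) when proteasome activity falls short, and interferon signalling switches in other catalytic subunits that form the immunoproteasome.

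Proteasome transcripts differed little between the 2 groups. None of the 40 members was called (limma, adjusted p under 0.05), where 1.9% of all genes were called in either direction, 0.688% higher and 1.21% lower. At an unadjusted p under 0.05 there was 1 member, PSMD10, against 15.7% of all genes. The log2 differences, S153E-RKIP minus control, ran from -0.13 for PSMD10 to 0.13 for PSMB5, and the smallest adjusted p was 0.301. The samples are bulk RNA, in which a change in the share of cells with a transcript and a change in RNA per cell cannot be told apart. On the scale as deposited the precision was enough to bound the change in array signal, for each gene taken singly. There 37 of the 40 intervals (95% confidence) lay within 1.2-fold in both directions, and the others ended just outside it. These intervals leave out the choice of normalisation, and how closely the signal follows the amount of RNA was not tested. PSMB10 had a difference of 0.17 (SE 0.055) with renewed quantile normalisation, and PSMD10 one of -0.16 (SE 0.060) with equal array medians. The bounds that follow are on the deposited scale. The lowest bound of any member was -0.28 (PSMD5), a fall of 1.21-fold, and the highest 0.28 (PSMG4), a rise of 1.21-fold. The standard error of a member's difference had a median of 0.057, against 0.072 over all genes. The level of 39 members lay above the median of all genes, and PSMA8, known as a testis form of an alpha subunit, was the exception with a mean of 3.63.

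**Figure D1:**
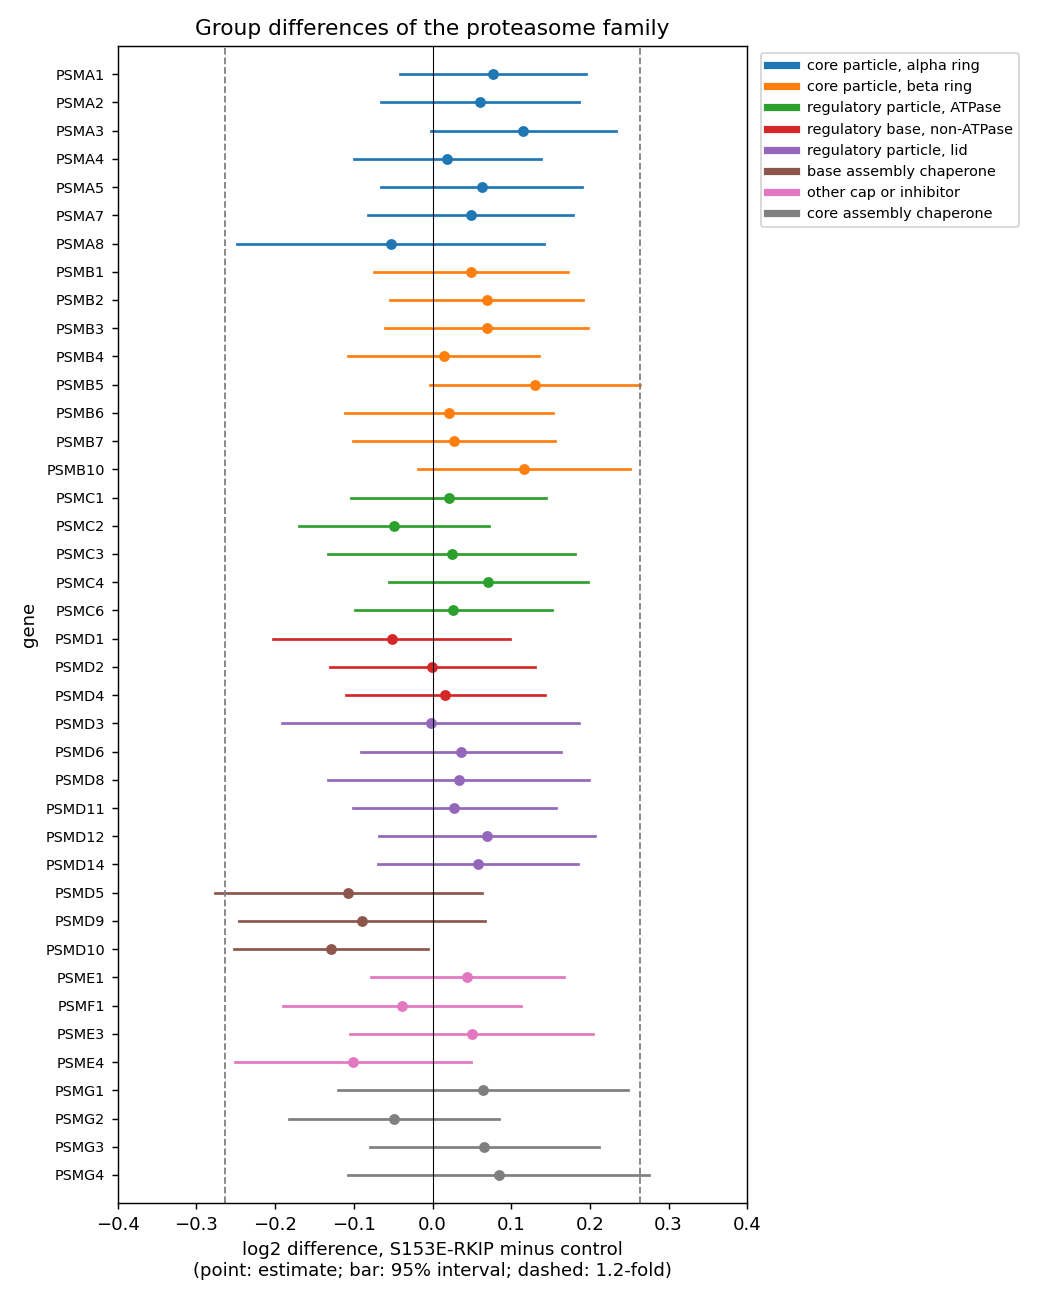
Log2 difference of each of the 40 proteasome family members (horizontal axis, S153E-RKIP minus control; vertical axis, genes by subcomplex). Points are limma estimates, bars are 95% confidence intervals and dashed lines mark 1.2-fold. The bars of 37 genes stay between the dashed lines, and only that of PSMD10 does not reach 0.

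The median difference of the members was 0.030, against 0.010 over all genes, and 29 of 40 lay above 0, against 53.6% of all genes. Among the 1233 other genes with a mean above 11 the median was -0.0078, and 44.0% lay above 0. The side of 0 on which members lay moved with the scale of the arrays, as it did for all genes. With the arrays set to equal medians the median was -0.0053 for the members, with 19 of 40 above 0, and -0.026 for all genes. With renewed quantile normalisation the medians were 0.042, with 32 of 40 members above 0, and 0.017. With the intensity trend removed by loess they were 0.045, with 31 of 40 members above 0, and 2.7e-04. The members' median lay above that of all genes on each of these scales. Setting equal medians shifts all genes of an array alike, so it could not change the gap between these medians. Without S153E-RKIP replicate 1 the members' median was 0.0079, with 22 above 0. The groups did not overlap for 9 members, PSMA1, PSMA2, PSMA3, PSMB2, PSMB5, PSMB10, PSMC2, PSMD10 and PSME1. That is 9 of 40, where 20.1% of all genes had groups that did not overlap.

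Among the alpha subunits, PSMA3 had the smallest p. It stood at 12.60, 12.58 and 12.59 on the control arrays and at 12.72, 12.70 and 12.70 on the S153E-RKIP arrays. All 3 treated arrays lay above all 3 control arrays, and the arrays of each group were close together. This makes a log2 difference of 0.12 with SE 0.051 (95% interval -0.0024 to 0.23; adjusted p = 0.326 in limma). The standard error here comes from the variance that limma shares across genes, which is larger than PSMA3's own SD of 0.012 in control and 0.0095 in the other group (n = 3 each). With an intensity trend in that shared variance and robust estimation the adjusted p was 0.0660, the smallest of any member under any alternative. The other 6 measured alpha genes ran from -0.053 for PSMA8 to 0.077 for PSMA1, and 6 of the 7 lay above 0. Of these, PSMA1 and PSMA2 also had groups that did not overlap.

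The catalytic sites sit in the beta ring, on the products of PSMB5 (chymotrypsin-like), PSMB6 (caspase-like) and PSMB7 (trypsin-like). PSMB5 stood at 11.54, 11.57 and 11.55 on the control arrays and at 11.76, 11.63 and 11.66 on the S153E-RKIP arrays. Its groups did not overlap, and replicate 1 lay highest in the treated group. The log2 difference was 0.13 (SE 0.058, 95% interval -0.0030 to 0.26; adjusted p = 0.327 in limma). PSMB6 had a level of 11.85, 11.79 and 11.88 in control and of 11.91, 11.81 and 11.85 in the treated group, in the same order of replicates, and the groups overlapped (difference 0.021, SE 0.058). PSMB7 had a level of 12.51, 12.50 and 12.54 in control and of 12.58, 12.48 and 12.57 in the treated group, again overlapping (difference 0.027, SE 0.056). The noncatalytic beta genes PSMB1, PSMB2, PSMB3 and PSMB4 had differences from 0.014 (PSMB4) to 0.069 (PSMB2). All 8 measured beta genes lay above 0, and so did 14 of the 15 members of the core particle, against 53.6% of all genes. These counts moved with the scale of the arrays. With equal array medians 10 of the 15 core members lay above 0, and PSMB4, PSMB6 and PSMB7 lay below it (-0.021, -0.015 and -0.0083). No core member was called under any alternative run.

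PSMB10 encodes the inducible replacement of PSMB7 in the immunoproteasome and is the only immunoproteasome gene among the members. It stood at 7.93, 8.01 and 8.01 on the control arrays and at 8.12, 8.04 and 8.14 on the S153E-RKIP arrays. The groups did not overlap, and the log2 difference was 0.12 (SE 0.059, 95% interval -0.018 to 0.25; adjusted p = 0.380 in limma). Of the inducible genes outside the family as chosen, PSMB9, the replacement of PSMB6, rose from 9.24, 9.24 and 9.26 to 9.57, 9.54 and 9.49 (difference 0.29, SE 0.054, limma adjusted p = 0.0377). Its call was lost when any 1 of the 6 arrays was left out (adjusted p of 0.0631 to 0.161) and with equal array medians (0.0638). PSMB8, the replacement of PSMB5, had levels of 9.64, 9.71 and 9.79 in control and of 9.93, 9.79 and 9.90 in the treated group (difference 0.16, SE 0.067, limma adjusted p = 0.303).

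Each inducible gene was then set against the constitutive gene it replaces, as the change of their log2 ratio between the groups. The ratio of PSMB9 to PSMB6 was higher by 0.27 on the S153E-RKIP arrays, with no overlap between groups (exact two-sided permutation test, p = 0.1, adjusted p = 0.15 over 3 pairs). For PSMB10 to PSMB7 the ratio was higher by 0.089, also without overlap (exact permutation p = 0.1, adjusted p = 0.15). For PSMB8 to PSMB5 it was higher by 0.030 and the groups overlapped (exact permutation p = 0.6, adjusted p = 0.6). With 3 arrays against 3 this exact permutation test cannot go below p = 0.1, so none of the 3 pairs could pass the threshold.

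**Figure D2:**
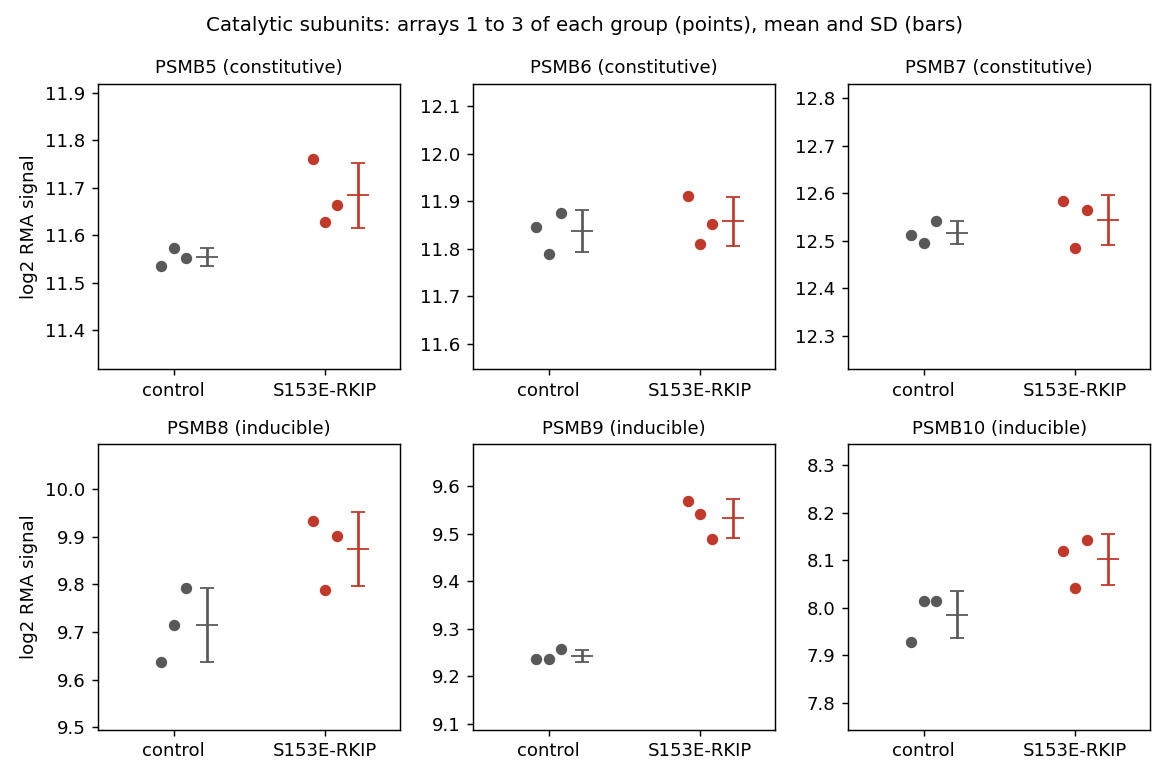
Log2 RMA signal (vertical axes, each spanning 0.6) of the constitutive catalytic genes in the upper row and of the inducible genes that replace them in the lower row, by group. Points are arrays in the order of replicates 1, 2 and 3, and the bars beside them give the mean and SD (n = 3). The treated arrays of PSMB9 lie above its control arrays by the widest margin of the 6 genes, while those of PSMB6, PSMB7 and PSMB8 overlap the control arrays.

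In the regulatory particle the 14 measured members lay between -0.052 (PSMD1) and 0.071 (PSMC4), with 10 above 0 and none called. PSMC4, an ATPase of the base, stood at 11.18, 11.15 and 11.18 on the control arrays and at 11.28, 11.18 and 11.27 on the S153E-RKIP arrays. Treated replicate 2 lay level with the controls and the others above them (difference 0.071, SE 0.055, limma adjusted p = 0.560). PSMC2 was the 1 ATPase gene of 5 with a difference below 0 (-0.049, SE 0.053), and its treated arrays all lay below its control arrays. PSMD1, a scaffold of the base, had 11.76, 11.59 and 11.59 in control and 11.57, 11.57 and 11.64 in the treated group, so that control replicate 1 alone stood high (difference -0.052, SE 0.066, adjusted p = 0.735). PSMD2, the other large scaffold, and PSMD4, a ubiquitin receptor, had differences of -4.0e-04 and 0.017.

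The lid gene PSMD14 encodes the metalloprotease that cuts ubiquitin chains from substrates. It stood at 12.11, 12.05 and 12.09 on the control arrays and at 12.15, 12.09 and 12.18 on the S153E-RKIP arrays, with overlapping groups. The log2 difference was 0.058 (SE 0.056, 95% interval -0.069 to 0.19; adjusted p = 0.643 in limma). PSMD12, the lid gene with the smallest p, had 12.01, 11.94 and 12.02 in control and 12.13, 12.004 and 12.04 in the treated group (difference 0.069, SE 0.060, adjusted p = 0.604). Treated replicate 2 again fell among the controls. The other lid genes PSMD3, PSMD6, PSMD8 and PSMD11 had differences from -0.0019 to 0.036.

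Of the 7 assembly chaperones among the members 3 had a difference above 0, and none was called. Assembly factors outside the naming rule, such as POMP and PAAF1 (0.079 and -0.0084), are not counted here. The 3 base chaperones among the members, PSMD5, PSMD9 and PSMD10, had a difference below 0 (-0.11, -0.090 and -0.13). All 3 lay below 0 in each of the 16 refits of all genes. The refits without _x_at probe sets, with filters on dim genes, trended and robust eBayes or the replicate block left these 3 estimates unchanged. Their signs could not turn there. The size for PSMD5 did not hold: its difference was -0.0061 with its probe sets averaged, its other probe set gave 0.095 by itself, and without control replicate 1 the difference was -0.038. That of PSMD9 was -0.026 without S153E-RKIP replicate 2. PSMD10, also known as gankyrin, stood at 11.32, 11.36 and 11.39 on the control arrays and at 11.24, 11.20 and 11.23 on the S153E-RKIP arrays. All treated arrays lay below all control arrays (difference -0.13, SE 0.054, 95% interval -0.25 to -0.0060; adjusted p = 0.301 in limma). Its other probe set gave -0.16 (SE 0.058, adjusted p = 0.311 over all probe sets). PSMD5 had 9.81, 9.60 and 9.60 in control and 9.63, 9.52 and 9.54 in the treated group, with control replicate 1 well above the rest. PSMD9 had 11.30, 11.26 and 11.29 in control and 11.26, 11.07 and 11.25 in the treated group, with treated replicate 2 well below the rest. PSMG3, a chaperone of the core, had 9.53, 9.47 and 9.54 in control and 9.68, 9.52 and 9.54 in the treated group (difference 0.066, SE 0.064, adjusted p = 0.646). The core chaperones PSMG1 and PSMG4 had differences of 0.064 and 0.084, and PSMG2 one of -0.049.

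Among the other caps, PSME4, the large single-chain activator, stood at 10.63, 10.48 and 10.46 on the control arrays and at 10.42, 10.38 and 10.46 on the S153E-RKIP arrays. The groups overlapped, with control replicate 1 highest (difference -0.10, SE 0.066, limma adjusted p = 0.484). PSME1, a subunit of the interferon-inducible cap, and PSME3, which forms a nuclear cap, had differences of 0.044 and 0.050. The inhibitor gene PSMF1 had one of -0.039 (SE 0.066).

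Within each group the members tended to be high or low on the same array. On S153E-RKIP replicate 2, 37 of 40 members had their lowest level of the 3 treated arrays, where 36.9% of all genes did. Among the 1233 other genes with a mean above 11 the share was 52.4%. On control replicate 2, 28 of 40 members had their lowest control level, against 33.5% of all genes and 47.7% of those bright genes. The median level of the members was 11.89, 11.84 and 11.91 on control replicates 1, 2 and 3 and 11.95, 11.87 and 11.89 on S153E-RKIP replicates 1, 2 and 3. The spread of this median within a group was an SD of 0.039 (n = 3 in each group, pooled). That is a spread of single arrays, while the median difference of 0.030 is taken over genes between means of 3 arrays. The 2 values are therefore not directly comparable. The median over all probe sets was highest, at 5.67, on S153E-RKIP replicate 2, where the members' median was the lowest of the 3 treated arrays, and ran from 5.60 to 5.65 on the other arrays. The part of array scale in the shared pattern was not tested beyond the alternatives named here.

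**Figure D3:**
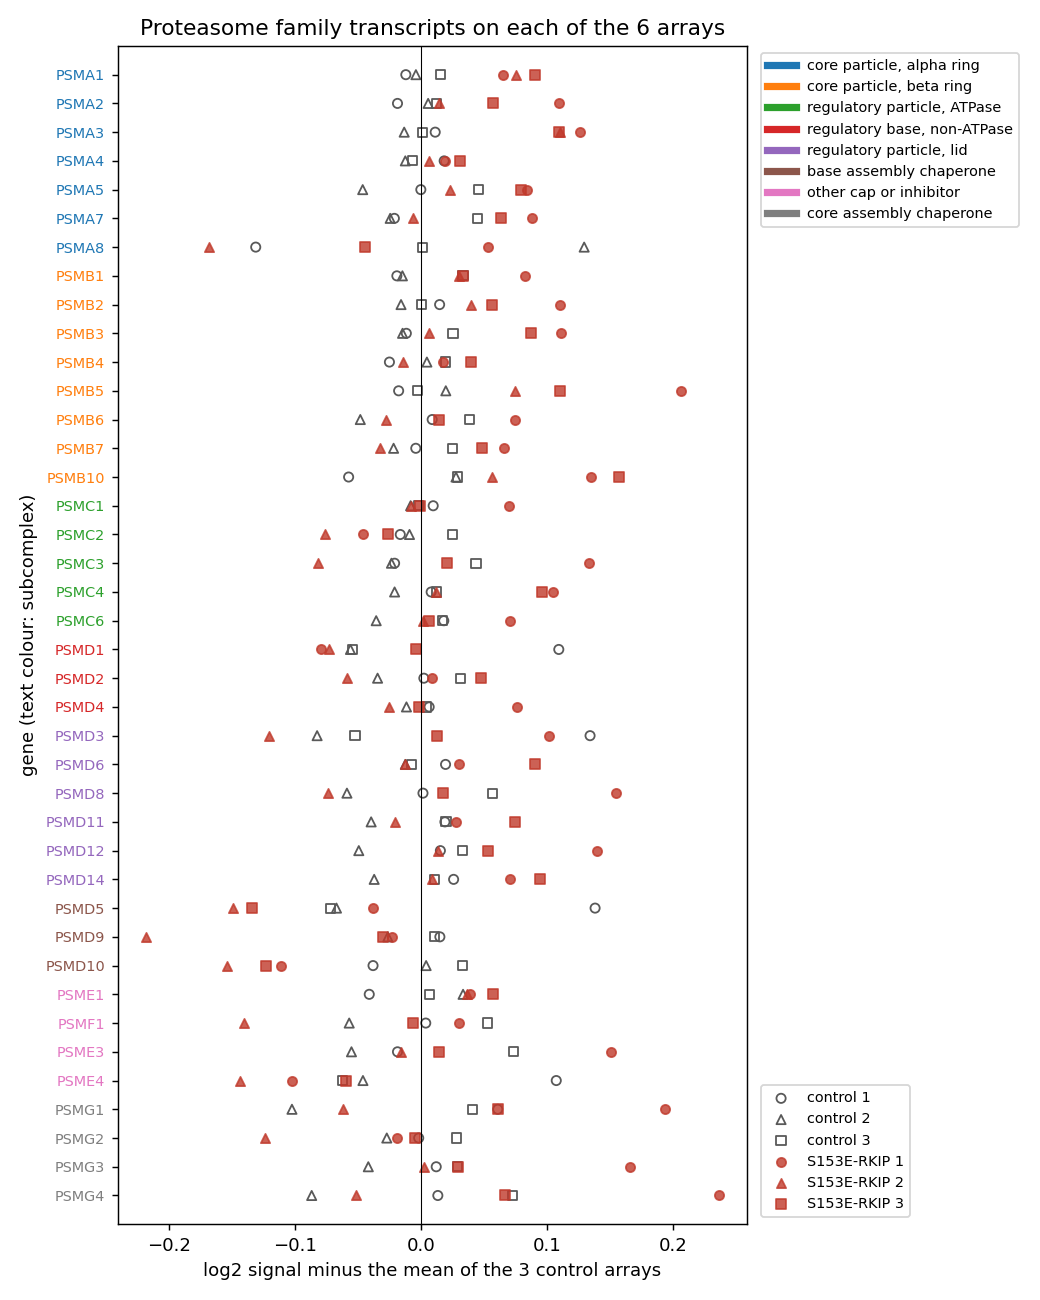
Log2 signal of each member on each of the 6 arrays (horizontal axis) minus the mean of the 3 control arrays, with genes by subcomplex on the vertical axis. Open symbols are control arrays and filled symbols S153E-RKIP arrays, with circles, triangles and squares for replicates 1, 2 and 3. The filled triangle is the lowest of the filled symbols in 37 of 40 genes, and PSMD10 and PSMA3 are among the 9 genes whose groups do not overlap.

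The 40 members have 79 probe sets of their own, and none was called when each was tested by itself (limma, adjusted p under 0.05; 1.05% of all probe sets were called). At an unadjusted p under 0.05 there were 2, the dimmer probe set of PSMD10 and a dim one of PSMG4 (difference -0.22, mean level 6.09), against 13.2% of all probe sets. The 64 probe sets above the median of all genes had differences from -0.16 to 0.13 with a median of 0.027. The 15 dimmer ones, where signal over background was not measured, ran from -0.22 to 0.11. Of 22 members with several probe sets, 11 had all of them on 1 side of 0. PSMC2, PSMD9, PSMD10 and PSME4 were below 0 on every probe set, and PSMA1, PSMA5, PSMA7, PSMB1, PSMD4, PSMD12 and PSME3 were above 0 on every one.

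**Figure D4:**
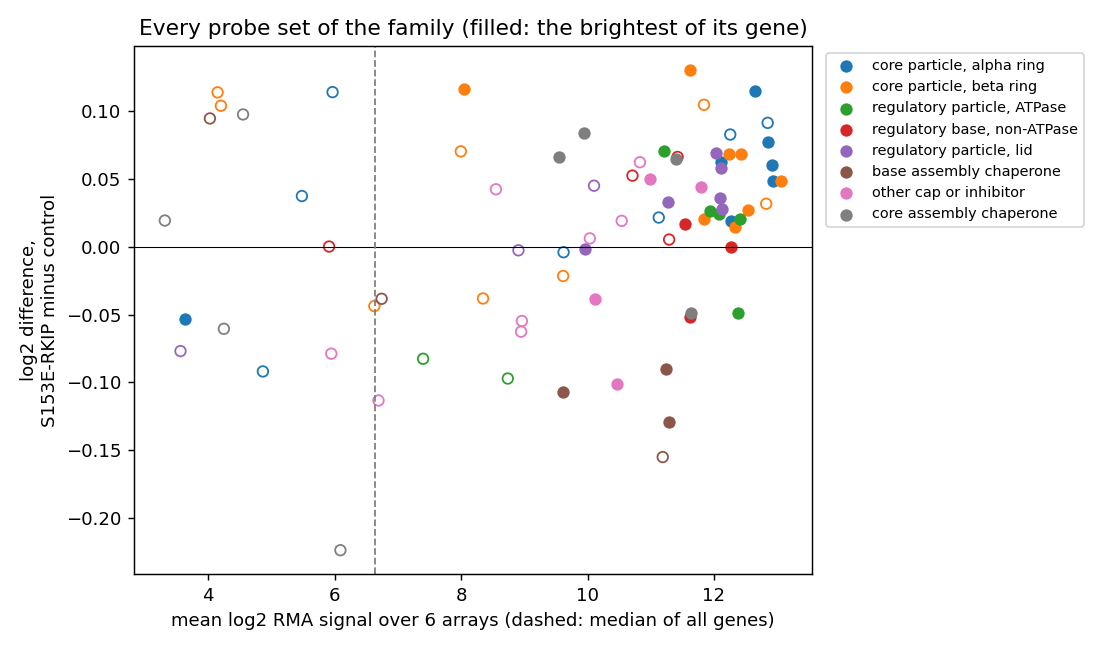
Log2 difference (vertical axis, S153E-RKIP minus control) of all 79 probe sets of the family against their mean log2 RMA signal over the 6 arrays (horizontal axis). Filled points are the brightest probe set of a gene, colours are subcomplexes and the dashed line is the median of all genes (6.64). The 64 probe sets to the right of the line stay between -0.16 and 0.13.

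NFE2L1 acts through antioxidant response elements, whose core is TGACNNNGC, and interferon regulatory factors bind paired GAAA repeats, searched here as 2 copies of GAAA set apart by any 2 bases. Both patterns were searched on both strands in the 250 bases before each gene's start (RefSeq, GRCh38.p14), which the table holds for 34 of the 40 members and for 27305 genes in all. A gene with several starts counted once, as holding a pattern if any of its windows did. The first pattern was present for 10 of the 34 members (29.4%) and for 13.2% of all genes, and the second for 4 members (11.8%) and for 3.71% of all genes. The stretches below show, for each subcomplex with a match to the first pattern, the match of the member with the smallest p, and the match of PSMB10 to the second. They are printed along the gene's own strand with the match in capitals, and a match on the opposite strand reads as its reverse complement.
PSMA4, chr15:78540644-78540684, plus strand: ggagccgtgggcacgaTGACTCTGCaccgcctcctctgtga
PSMB3, chr17:38752621-38752661, plus strand: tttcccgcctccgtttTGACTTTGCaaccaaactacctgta
PSMD12, chr17:67366718-67366758, minus strand: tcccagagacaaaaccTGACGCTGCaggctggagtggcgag
PSMD5, chr9:120843032-120843072, minus strand: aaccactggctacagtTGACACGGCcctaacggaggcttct
PSME4, chr2:53971003-53971043, minus strand, match on the opposite strand: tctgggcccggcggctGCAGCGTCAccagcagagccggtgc
PSMG2, chr18:12658683-12658723, plus strand: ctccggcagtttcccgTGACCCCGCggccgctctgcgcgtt
PSMB10, chr16:67936851-67936887, minus strand: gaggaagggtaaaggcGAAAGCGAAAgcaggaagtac

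The 10 members with a TGACNNNGC match were PSMA4, PSMB3, PSMD3, PSMD5, PSMD9, PSMD12, PSME1, PSME4, PSMG1 and PSMG2. Their differences had a median of 0.0085, with 5 above 0, and those of the 24 others a median of 0.035. A match is a run of letters and not a measured binding site. The 4 members with a paired GAAA repeat, PSMA4, PSMB4, PSMB10 and PSMG4, all had differences above 0 (0.019, 0.014, 0.12 and 0.084), and none was called. The window of PSMB9 held the first pattern and not the second, and that of PSMB8 held neither.

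Genes that serve the proteasome without belonging to the family were listed by role, and 27 of the 33 were measured. None was called (limma), and 1, MAFF, had an unadjusted p under 0.05. Of 11 associated subunits and factors, UCHL5, a deubiquitinase that binds the regulatory particle, had the smallest p (difference 0.11, SE 0.056, adjusted p = 0.372), and POMP, which matures the core, had a difference of 0.079. Of the list on transcriptional control 5 genes were measured: NFE2L1, NFE2L2, MAFG, MAFF and NGLY1, an enzyme that removes sugar chains from NFE2L1. NFE2L1 stood at 10.09, 10.05 and 9.99 on the control arrays and at 10.08, 10.24 and 10.27 on the S153E-RKIP arrays. Treated replicate 1 lay among the controls and the other 2 above them (difference 0.15, SE 0.069, 95% interval -0.0027 to 0.31; adjusted p = 0.325 in limma). MAFF, a small Maf protein that can pair with NFE2L1, had 11.52, 11.49 and 11.51 in control and 11.82, 11.69 and 11.70 in the treated group, with no overlap (difference 0.23, SE 0.059, adjusted p = 0.121). NFE2L2 had a difference of 0.0043. Of 3 ubiquitin and ubiquitin-activating genes measured, UBB had the smallest p (-0.059, SE 0.051, adjusted p = 0.609), and of 8 shuttle and unfoldase genes UFD1 did (0.077, SE 0.060, adjusted p = 0.561).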

How the data were processed

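Total RNA from 6 cell samples was labelled with biotin and hybridised, 1 array a sample, per the labels' protocols. The deposited values are log2 signals per probe set made by the authors with RMA, per the submitters' processing notes; no RMA version is stated. Of 54675 probe sets, 62 controls were left out, and 41091 have 1 gene symbol in the platform annotation, 1801 several and 11721 none. Symbols were set against RefSeq through gene identifiers, which 41037 matched. Array signals of different probe sets are not levels per length, so members were not ranked by level. Groups came from the sample titles. S153E-RKIP was compared with control in limma 3.58.1 under R 4.3.3 (lmFit, eBayes, two-sided, Benjamini-Hochberg over 19775 genes, threshold 0.05 on the adjusted p). Standard errors and intervals use the moderated variance. The number of arrays limits the precision. The fit was tested on simulated data. It called in the right direction 29, 43, 48 and 50 of 50 genes changed by 1.3-, 1.5-, 2- and 4-fold. Of 19575 unchanged genes 4 were called. Changes under 1.3-fold were not simulated. Other settings tried were averaged probe sets for each gene, single probe sets, no _x_at probe sets, 2 filters on dim genes, renewed quantile normalisation, equal medians, loess removal of the intensity trend, trended and robust eBayes, array weights, a replicate block, a threshold of 0.01 and each array left out. Besides the patterns reported, 6 others were searched in the promoter windows: CCAAT, TTCCNGGAA, TGACTCAGC and 3 forms of the NF-kB element. They were present for 15, 0, 0 and, from the loosest form to the strictest, 25, 2 and 0 of 34 members. In the same order the shares of members were 44.1%, 0%, 0%, 73.5%, 5.88% and 0%. Those of all genes were 37%, 1.21%, 0.568%, 57.8%, 1.94% and 0.216%. Values by array are given for the member with the smallest p in each subcomplex, for the catalytic genes and PSMD14, and for called genes; PSMD5, PSMD9, NFE2L1 and MAFF were chosen for naming with their values in view. The members and lists were chosen with earlier results of these data known.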

Additional observations from a re-analysis of the deposited data

How the results depend on the processing

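Of the 40 members, 0 were called in the comparison as reported and in each of 16 refits of all genes, and the smallest adjusted p of any member under an alternative was 0.0660. Under both filters on dim genes PSMA8 dropped out, which left 39. The number of genes called in all was 376, and 600 with an intensity trend and robust estimation in eBayes, 147 at an adjusted p under 0.01, and from 124 to 303 when each array was left out in turn. The number of members above 0 was 29, and 19 with equal array medians. It ran from 22 to 33 and the members' median from 0.0079 to 0.058 when each array was left out. Deviations from the group means correlated at 0.13, 0.26 and -0.044 for replicate numbers 1, 2 and 3 over all genes. Over the members the values were -0.016, 0.26 and -0.19. These values do not settle whether the numbers pair the arrays, and replicate 2 was most often the lowest for the members in both groups. With the replicate block 332 genes and 0 members were called, and PSMB9 had an adjusted p of 0.0828. In this balanced design the block cannot change the differences, so the members' median of 0.030 could not move. Of the 16 refits 8 ended the call of PSMB9 at an adjusted p under 0.05, as did the threshold of 0.01. None of the 16 turned the direction of its difference, but several of them left that estimate unchanged by design. The array with the most members at their lowest level, S153E-RKIP replicate 2, raised the median to 0.058 when left out. With 3 arrays a group, the 95% intervals set how small a difference could be told from 0.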
